A study of Homo sapiens with 2 samples.

Results

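The AKR1 family comprises aldo-keto reductases, enzymes that use NADPH to reduce aldehydes and ketones to alcohols. The 9 genes AKR1A1, AKR1B1, AKR1B10, AKR1B15, AKR1C1, AKR1C2, AKR1C3, AKR1C4 and AKR1D1 were taken by gene symbol from the 58174 genes listed for PLC-8024 cells. The rule that chose them uses gene symbols and no measured value, although earlier results of these data were known, and AKR1E2 was counted with the other aldo-keto reductases. Of the 9 members, 6 had at least 1 TPM in either library, as did 14929 of all genes.

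PLC-8024 is a human hepatocellular carcinoma (HCC) cell line. RNA-seq was performed on PLC-8024-CTR cells, which carried a control vector, and on PLC-8024-GDF1 cells, which overexpressed GDF1, a ligand of the TGF-beta superfamily. Per the methods, GDF1 was introduced by lentiviral transduction and stably transduced cells were selected with puromycin. There was 1 library per condition, so no difference below has a replicate check and no test was made. The values describe these libraries, and an effect of GDF1 cannot be told apart from differences between 2 separately transduced cell populations.

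The unit is TPM (transcript levels summing to the same total in each library), which corrects for gene length and for the library total, so levels of different genes can be set side by side. TPM keeps no sequencing depth, and no counting error is given. Each difference is a log2 change, the PLC-8024-GDF1 library against the PLC-8024-CTR library with 1 TPM added to both values, which makes the change of low genes smaller. A gene was counted as risen or fallen when this value was over 1 or under -1, that is, past 2-fold. Most genes lay below zero on this scale. The median over 14929 genes was -0.20, with 36.7% of them higher and 63.3% lower in PLC-8024-GDF1. Past 2-fold, 720 genes rose and 1434 fell, so that rises made up 33.4% of these calls. After multiplying PLC-8024-GDF1 TPM by 1.15 (0.21 on the log2 scale), which sets the median ratio to 0, 1062 rose and 1022 fell and the share of rises was 51.0%. GDF1 itself went from 2.10 to 4.64 TPM, while CERS1, the gene with which it shares a transcript, went from 13.3 to 9612 TPM.

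AKR1 enzymes divide into branches by substrate. AKR1A1 and AKR1B1 act mainly on aldehydes and sugars, AKR1B10 and AKR1B15 on retinal and lipid aldehydes or ketones, the AKR1C enzymes on keto groups of steroids and prostaglandins, and AKR1D1 on a double bond of steroids and bile acid precursors. In the liver they take part in bile acid synthesis, steroid hormone inactivation and the disposal of reactive carbonyls. Several members are known targets of NRF2, a transcription factor of the oxidative stress response.

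AKR1C1 and AKR1B1 rose in PLC-8024-GDF1 cells, no member fell, and the other 4 expressed members stayed within 2-fold. AKR1C1 went from 125.6 to 340.3 TPM (2.71-fold), and AKR1B1 went from 13.9 to 35.9 TPM (2.58-fold). The 2 of 6 members that rose compare with 4.82% of all genes, and the 0 of 6 that fell with 9.61%. The median log2 change of the 6 members was 0.43, against -0.20 over all genes, and after rescaling the same values were 0.63 and -0.01. Adding up all 9 members, the family took 0.0480% of the PLC-8024-CTR total (479.5 TPM) and 0.0829% of the PLC-8024-GDF1 total (829.0 TPM), a 1.73-fold higher sum. In a bulk library, a change in the share of cells that express a gene and a change in its RNA per cell cannot be told apart.

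**Figure D1:**
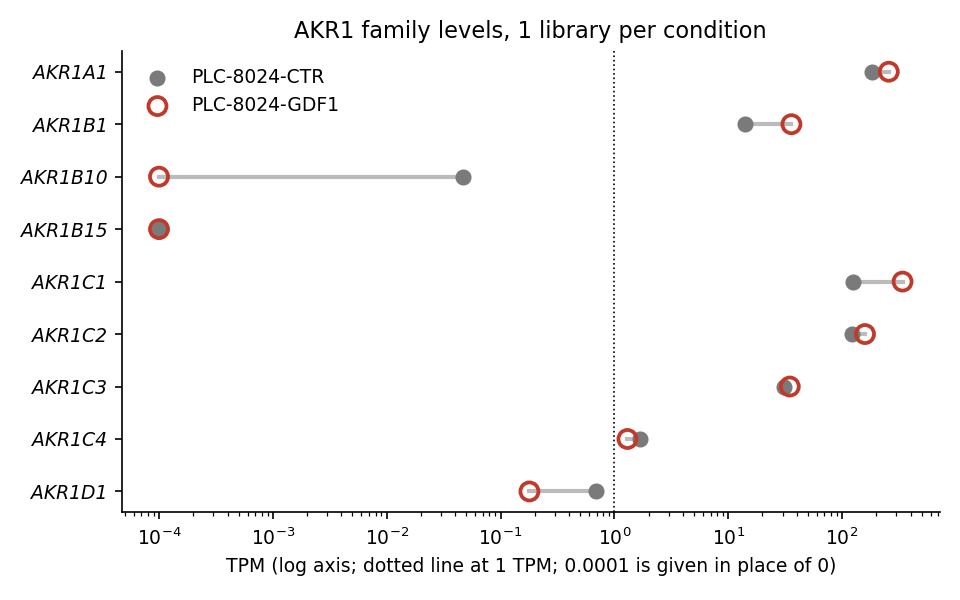
TPM of the 9 AKR1 genes in the PLC-8024-CTR library (grey points) and the PLC-8024-GDF1 library (red circles), on a log axis. AKR1C1 and AKR1B1 show the wide gaps above the dotted line at 1 TPM, while AKR1B10, AKR1B15 and AKR1D1 lie below it in both libraries.

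In PLC-8024-CTR the order of levels was AKR1A1 (183.0 TPM), AKR1C1 (125.6 TPM), AKR1C2 (123.4 TPM), AKR1C3 (31.1 TPM), AKR1B1 (13.9 TPM) and AKR1C4 (1.70 TPM). In PLC-8024-GDF1 it was AKR1C1 (340.3 TPM), AKR1A1 (257.5 TPM), AKR1C2 (159.1 TPM), AKR1B1 (35.9 TPM), AKR1C3 (34.8 TPM) and AKR1C4 (1.30 TPM). AKR1C1 thus passed AKR1A1, and AKR1B1 passed AKR1C3. Without replicates it is not known which neighbours in either order differ beyond their spread. The values of AKR1C1 and AKR1C2 in PLC-8024-CTR, and of AKR1B1 and AKR1C3 in PLC-8024-GDF1, were the closest pairs.

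AKR1A1 (ENSG00000117448, plus strand of chr1:46016215-46035721, GRCh37) encodes aldehyde reductase, which is expressed in most tissues. Its level was 183.0 TPM in the control library, above 94.9% of the expressed genes, and at 257.5 TPM in PLC-8024-GDF1. This is 1.41-fold higher with a log2 change of 0.49, within 2-fold under every setting tried. AKR1A1 was the member with the highest level in PLC-8024-CTR, and 3 genes were named for lying nearest to it in log2 TPM over both libraries. They were ARL2 (181.5 and 253.8 TPM), G6PC3 (186.1 and 253.0 TPM) and AURKB (178.2 and 255.3 TPM), at distances of 0.024, 0.035 and 0.041 on the log2 scale. With 2 values per gene, this likeness is a description.

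AKR1B1 (ENSG00000085662, minus strand of chr7:134127108-134144036, GRCh37) encodes aldose reductase, which reduces glucose to sorbitol in the polyol pathway. Its level rose from 13.9 to 35.9 TPM, and the log2 change was 1.31. A larger log2 change was found for 363 of the 14929 genes. In PLC-8024-CTR its level lay above 61.0% of expressed genes and in PLC-8024-GDF1 above 80.5%. The ratio of AKR1A1 to AKR1B1 went from 13.1 to 7.17. No 100-base window of the longest AKR1A1 or AKR1B1 transcript occurred in another AKR1 gene or in any other annotated gene. Windows of 75 bases were compared only with the other AKR1 genes and none was shared, while inexact matches were not tested.

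AKR1B10 (ENSG00000198074, plus strand of chr7:134212319-134226164) and AKR1B15 (ENSG00000227471, plus strand of chr7:134233862-134264627) lie beside each other on GRCh37. AKR1B10 reduces retinal and is known as a gene that many liver tumours express highly. In this line its value was 0.047 TPM in control cells and, with GDF1, the 0.0001 TPM that is given in place of 0. AKR1B15 was listed at 0.0001 TPM in both libraries. The coding sequences of the pair were identical at 869 of 948 aligned bases. Their sum (0.047 and 0.0002 TPM) was also far below 1 TPM in each library, and no fold is given for it.

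**Figure D2:**
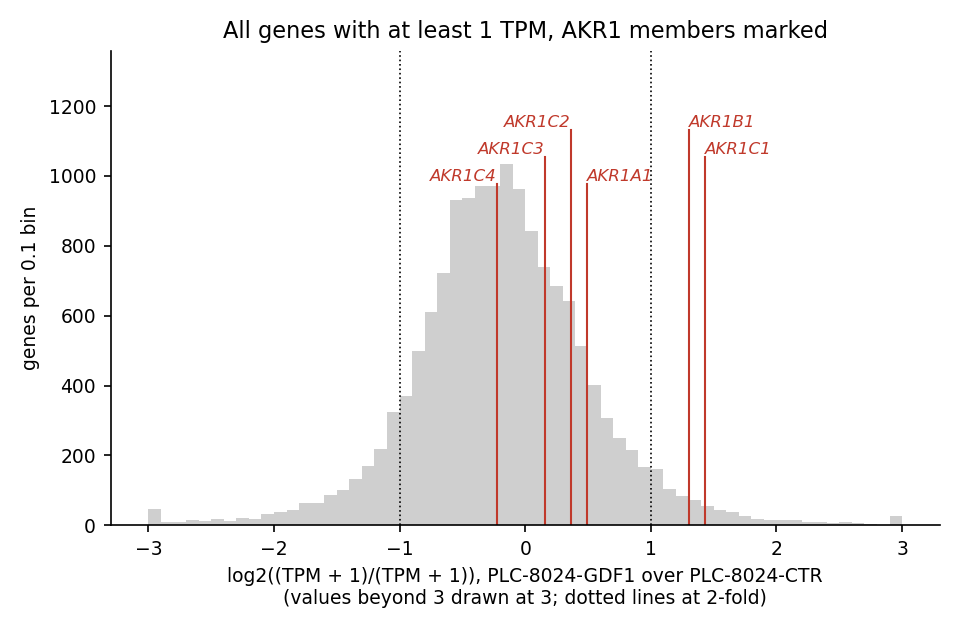
Log2 changes of the 14929 expressed genes (1 TPM or more in either library) (grey bars, genes per bin of 0.1), with red lines at the 6 expressed AKR1 members. AKR1B1 at 1.31 and AKR1C1 at 1.43 lie right of the dotted line at 2-fold, and AKR1C4 at -0.23 is the only one of the 6 below zero.

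The 4 AKR1C genes lie side by side on chromosome 10 and encode hydroxysteroid dehydrogenases of similar sequence. Each of the coding sequences was 969 bases long. AKR1C1 and AKR1C2 differed at 19 bases and were 98.0% identical, AKR1C1 and AKR1C3 at 83 bases (91.4%), and AKR1C1 and AKR1C4 at 111 bases (88.5%). The stretch below, coding bases 85 to 204 in GENCODE v44, is shown because it holds 10 of the 19 coding bases that differ between AKR1C1 and AKR1C2. It is given 5′ to 3′ on the coding strand, with bases that differ from AKR1C1 in capitals, at chr10:5008106-5008225 (AKR1C1, plus strand, exon 2), chr10:5043754-5043873 (AKR1C2, minus strand, exon 2), chr10:5138602-5138721 (AKR1C3, plus strand, exon 2) and chr10:5242144-5242263 (AKR1C4, plus strand, exon 4) of GRCh37.
AKR1C1: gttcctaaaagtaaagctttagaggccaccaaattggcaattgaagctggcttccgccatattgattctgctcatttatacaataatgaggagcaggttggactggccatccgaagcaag
AKR1C2: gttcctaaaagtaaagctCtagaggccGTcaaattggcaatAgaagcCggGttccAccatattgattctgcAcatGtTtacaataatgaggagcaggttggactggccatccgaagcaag
AKR1C3: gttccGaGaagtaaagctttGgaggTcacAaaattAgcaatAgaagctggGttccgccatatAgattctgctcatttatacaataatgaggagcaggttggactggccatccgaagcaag
AKR1C4: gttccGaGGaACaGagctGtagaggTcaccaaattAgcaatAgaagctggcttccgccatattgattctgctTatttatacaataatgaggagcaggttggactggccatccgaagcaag

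The last bases of the stretch were the same in all 4 genes, and the capitals lay in its first part. AKR1C2 had 10 differences from AKR1C1 in the stretch, AKR1C3 had 9 and AKR1C4 had 11. Outside it, the remaining 9 differences between AKR1C1 and AKR1C2 were spread over the coding sequence, and the longest run of identical bases was 186.

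**Figure D3:**
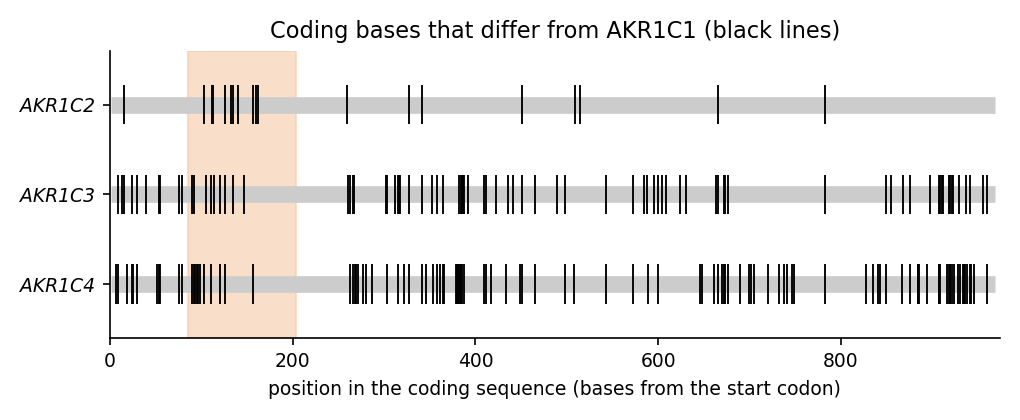
Positions in the 969-base coding sequence at which AKR1C2, AKR1C3 and AKR1C4 differ from AKR1C1 (black lines), with the printed stretch shaded. AKR1C2 has 19 differences, 10 of them in the shaded stretch, while AKR1C3 has 83 and AKR1C4 has 111 along the whole length.

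To see how much of each gene reads could share, all 100-base windows of the longest transcript were compared exactly with the transcripts of the other members. The share found elsewhere was 27.8% in AKR1C2 (865 of 3116 windows), 12.6% in AKR1C1 (815 of 6444), 6.51% in AKR1C3 and 0.456% in AKR1C4. Within coding sequence it was 26.4% in AKR1C2, 20.7% in AKR1C1, 9.77% in AKR1C3 and 0.690% in AKR1C4. Between AKR1C1 and AKR1C2 alone, 164 of 870 coding windows (18.9%) were shared. The majority of windows in each gene was thus specific to it, but the values of AKR1C1 and AKR1C2 are uncertain to the extent that shared reads were split between them. How multiply aligned reads were treated is not given in the sources used here.

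AKR1C1 (ENSG00000187134, plus strand of chr10:5005445-5025475, GRCh37) encodes the enzyme that reduces progesterone to a less active form. Its level rose from 125.6 to 340.3 TPM, and the log2 change was 1.43. Of the 14929 genes, 281 had a larger one. AKR1C1 moved from above 92.7% of expressed genes to above 97.2%. After rescaling, its log2 change was 1.64.

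AKR1C2 (ENSG00000151632, minus strand of chr10:5029967-5060223), whose enzyme inactivates dihydrotestosterone and binds bile acids, had a level of 123.4 TPM in control cells and of 159.1 TPM with GDF1. Its log2 change of 0.36 (1.29-fold) was within 2-fold. The long non-coding gene ENSG00000224251 overlaps AKR1C2 on the opposite strand, and was listed at 1.26 and 0.536 TPM. Whether strand was used in counting is not given in the sources used here, so reads of this pair cannot be told apart. The ratio of AKR1C1 to AKR1C2 was 1.02 in PLC-8024-CTR and 2.14 in PLC-8024-GDF1, so near-equal levels became unequal.

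AKR1C3 (ENSG00000196139, plus strand of chr10:5077546-5149878), which forms testosterone from androstenedione and also acts as a prostaglandin F synthase, had a level of 31.1 TPM in control cells and of 34.8 TPM with GDF1. The log2 change was 0.15. AKR1C4 (ENSG00000198610, plus strand of chr10:5237425-5260912), whose expression is largely limited to hepatocytes and whose enzyme acts on bile acid precursors, was listed at 1.70 and 1.30 TPM. Its log2 change was -0.23, close to the median of all genes, and its sign turned when the trend on GC content was removed. AKR1C4 lies over the processed pseudogene ARL4AP3, listed at 0.0001 and 0.075 TPM.

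Because reads may move between paralogs, the 4 AKR1C genes were also added up. The sum was 281.8 TPM for PLC-8024-CTR and 535.4 TPM for PLC-8024-GDF1, 1.90-fold higher with a log2 change of 0.92. As 1 gene AKR1C therefore stayed within 2-fold. This left AKR1B1 as the only 1 of 3 expressed units (AKR1A1, AKR1B1 and the AKR1C sum) past it, beside 4.82% of all genes that rose. After rescaling, the sum was past 2-fold at 1.13. The near-identical pair AKR1C1 and AKR1C2 added up to 249.0 and 499.3 TPM, which is just past 2-fold at 2.01-fold, a log2 change of 1.00. AKR1C1 accounted for 84.7% of the added AKR1C TPM, and the pair for 98.7%. The composition of the sum differed between the libraries. AKR1C1 made up 44.6% of it in PLC-8024-CTR and 63.6% in PLC-8024-GDF1, AKR1C2 43.8% and 29.7%, AKR1C3 11.0% and 6.49%, and AKR1C4 0.602% and 0.243%. The composition depends on how shared reads were split between the paralogs. The sum may depend on it too, because TPM divides by length and the longest transcripts differ, from 1405 bases for AKR1C3 to 6543 bases for AKR1C1, and this was not tested.

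**Figure D4:**
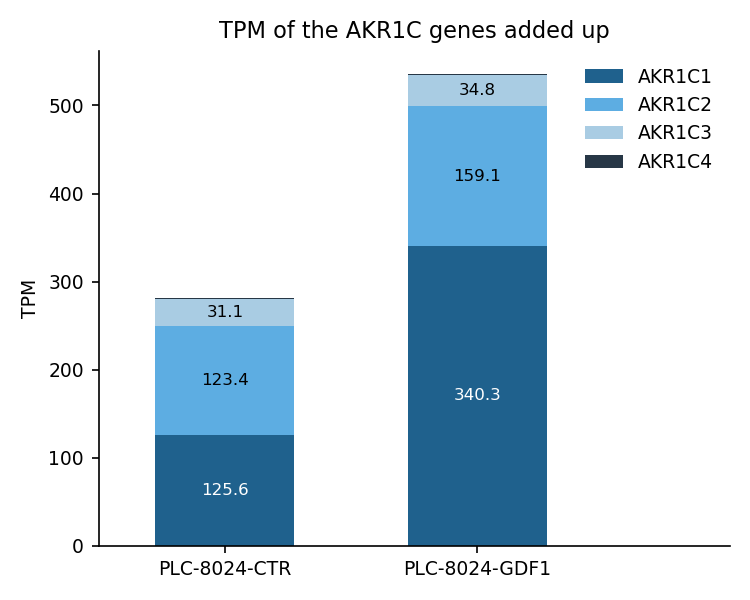
TPM of AKR1C1, AKR1C2, AKR1C3 and AKR1C4 stacked for each library, with the TPM of each written in its segment except for AKR1C4, which is 1.70 and 1.30 TPM. The PLC-8024-CTR stack is 281.8 TPM high, that of PLC-8024-GDF1 535.4 TPM, and most of the added height is AKR1C1.

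The gene tables also listed 13 AKR1 pseudogenes. All 13 were at 0.0001 TPM in both libraries. The TPM of the family was thus listed under its 9 named genes alone. Of the 1520 windows of 100 bases in the longest AKR1B10 transcript, 17 occurred in another AKR1 member. In any other gene, members included, 30 occurred, and which genes held the rest is not given here.

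AKR1D1 (ENSG00000122787, plus strand of chr7:137687070-137803051, GRCh37) encodes the steroid reductase that sets the ring shape of bile acids. It was listed at 0.687 TPM without and 0.179 TPM with GDF1, below the 1 TPM minimum in both. Its log2 change was -0.52, and without the pseudocount it was -1.94. Values this low are the most affected by the pseudocount.

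The log2 change moved with GC content across all genes. In 5 equal groups of 2928 genes ordered by GC content, taken from each gene's longest transcript, the median log2 change was -0.45, -0.33, -0.21, -0.09 and 0.11 from the lowest to the highest. The share of genes that rose was 2.12% in the lowest group and 8.88% in the highest. AKR1C2 (41.1% GC) lay in the lowest group, AKR1C1 (42.2%), AKR1C3 (43.5%) and AKR1C4 (44.3%) in the second, and AKR1B1 (53.5%) and AKR1A1 (56.7%) in the fourth. With the trend on GC removed, the log2 change was 1.78 for AKR1C1, 1.44 for AKR1B1, 0.74 for AKR1C2, 0.56 for AKR1A1, 0.48 for AKR1C3 and 0.08 for AKR1C4. AKR1C1 and AKR1B1 thus stayed past 2-fold.

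The region before the start of AKR1C1 and of AKR1C2 was compared because AKR1C1 rose while its neighbour AKR1C2 stayed within 2-fold. RefSeq promoter windows of 250 bases before to 50 after the start (GRCh38.p14) were found for 7 of the 9 members, and not for AKR1B10 and AKR1B15. A run of 245 bases before the start was the same, base for base, in AKR1C1 (plus strand, chr10:4963169-4963413, 246 to 2 bases before the start) and AKR1C2 (minus strand, chr10:5003863-5004107, 250 to 6 bases before the start). It is printed once, 5′ to 3′ in the direction of transcription, with no capitals because no base differs.
AKR1C1 and AKR1C2: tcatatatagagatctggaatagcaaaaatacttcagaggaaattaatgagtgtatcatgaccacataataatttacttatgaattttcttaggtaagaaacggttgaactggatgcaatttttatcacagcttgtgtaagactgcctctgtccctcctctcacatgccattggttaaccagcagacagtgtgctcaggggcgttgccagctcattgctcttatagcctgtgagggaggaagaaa

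The longest run that AKR1C1 shared with the AKR1C3 window compared was 18 bases, and with the AKR1C4 window 11 bases. AKR1C3 had a further window at another start, which was not compared. The antioxidant response element core TGACNNNGC, to which NRF2 binds, and the palindromic SMAD element GTCTAGAC were searched on both strands. Neither was found in the 9 windows of the 7 members. Of 35116 promoter windows of all genes, 13.3% held the first and 0.202% the second. This says only that these letters are not in these windows.

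Genes of related function were then counted from lists of known function. Every count below is to be read against the shares of all genes, 4.82% risen and 9.61% fallen, or 7.01% and 6.75% after rescaling. Among the 22 NRF2 target genes outside AKR1, 1 rose, 5 fell and 16 stayed within 2-fold, with a median of -0.28 against -0.20 over all genes. The 1 of 22 that rose is near the 4.82% of all genes. With rescaled TPM, 1 rose, 3 fell and the median was -0.08. GPX2, a glutathione peroxidase, rose from 138.3 to 405.5 TPM (log2 change 1.54). TXNRD1, thioredoxin reductase, fell from 13.1 to 0.991 TPM (-2.83), and GCLC and GCLM, the subunits of the enzyme that starts glutathione synthesis, fell from 12.8 to 3.77 TPM (-1.53) and, for GCLM, from 8.33 to 2.85 TPM (-1.28). The other fallen genes were SRXN1 (-1.13) and SLC7A11 (-1.07), which were within 2-fold after rescaling at -0.95 and -0.96. FTL, the ferritin light chain and the member with the highest level, was listed at 21437 and 25864 TPM. The AKR1 members, whether risen or within 2-fold, are outside this list and were not added to its counts. An NRF2 part in these values was not tested.

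The 8 genes of NRF2 control all stayed within 2-fold, with a median of 0.11. SQSTM1, an autophagy receptor that sequesters KEAP1, had the highest level and was listed at 511.4 and 1021 TPM, just inside 2-fold at 0.996. After rescaling, SQSTM1 (1.20) and CUL3 (1.05), part of the KEAP1 ubiquitin ligase, were past 2-fold and the median was 0.31. NFE2L2, which encodes NRF2, was listed at 18.5 and 19.4 TPM.

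The bile acid synthesis genes outside AKR1 had a lower median. Of 12 genes, 9 were expressed, 0 rose (4.82% of all genes) and 3 fell (9.61% of all genes), with a median of -0.81. ACOX2, the oxidase of bile acid side chains and the member with the highest level in PLC-8024-CTR, fell from 82.0 to 22.4 TPM (-1.83). BAAT, which conjugates bile acids, fell from 3.07 to 0.884 TPM (-1.11), and AMACR, a racemase of side-chain intermediates, from 4.01 to 1.36 TPM (-1.09). After rescaling, AMACR was within 2-fold at -0.97, SLC27A5, a bile acid ligase, was past it at 1.01, and the median was -0.69. CYP7A1, which begins the classic pathway of bile acid synthesis, was at 0.0001 TPM in both libraries, and CYP27A1, which begins the alternative pathway, was listed at 2.79 and 3.22 TPM.

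Of 19 steroid reductases and dehydrogenases outside AKR1, 12 were expressed, 0 rose and 2 fell, beside 4.82% and 9.61% of all genes. Counts this small are not set apart from those shares. HSD17B2, which inactivates oestradiol and testosterone, fell from 2.74 to 0.178 TPM (-1.67), and HSD17B12, which also elongates fatty acids, from 31.3 to 12.3 TPM (-1.28). The highest level was that of HSD17B10, a mitochondrial dehydrogenase, at 465.1 and 499.8 TPM. The median was -0.03 and turned to 0.17 after rescaling, with the same counts. Of the polyol and fructose pathway, in which AKR1B1 takes the first step, 3 of 4 genes were expressed. SORD, which turns sorbitol into fructose, fell from 3.91 to 0.674 TPM (-1.55) while AKR1B1 rose, and KHK, ketohexokinase, was listed at 19.8 and 28.0 TPM. The median of the 3 was -0.67, and -0.47 after rescaling.

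Carbonyl-reducing and aldehyde-oxidising enzymes of other families mostly stayed within 2-fold. Of the 14 expressed carbonyl and retinal reductases, 1 rose, and this was DHRS2 from 1.57 to 7.54 TPM (1.73). CBR1, the member with the highest level, was listed at 189.8 and 131.8 TPM. The median was -0.18, and 0.02 after rescaling. All 14 expressed aldehyde dehydrogenases stayed within 2-fold by log2 change with 1 TPM added, with medians of -0.18 and, after rescaling, -0.03. Without the added 1 TPM, ALDH2 (0.494-fold) and ALDH3A2 (0.483-fold) were past 2-fold. ALDH1A1 had the highest level at 292.7 and 268.0 TPM. By the same measure the 5 expressed aldo-keto reductases outside AKR1, among them AKR7A2 at 63.4 and 60.0 TPM, stayed within 2-fold. Their median was -0.07. After rescaling the median was 0.12 and KCNAB2, a potassium channel subunit, was past 2-fold at 1.03. Without the added 1 TPM and without rescaling, KCNAB2 (2.27-fold) and KCNAB3 (0.435-fold) were past 2-fold. AKR1E2 was at 0.0001 TPM in both libraries.

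Among 12 genes of prostaglandin synthesis and reduction, to which AKR1C3 also belongs by function, 7 were expressed, 1 rose and 2 fell, beside 4.82% and 9.61% of all genes. PTGS1, a cyclooxygenase, fell from 3.53 to 0.285 TPM (-1.82), and PTGR2, a prostaglandin reductase, from 3.07 to 0.880 TPM (-1.12). PTGDS, a prostaglandin D synthase and the 1 that rose, was listed at 0.0001 and 1.18 TPM. It met the 1 TPM minimum only through PLC-8024-GDF1, so its count as risen rests on that low value. PTGES2, a prostaglandin E synthase, had the highest level at 79.3 and 92.6 TPM. The median was 0.02, and 0.21 after rescaling with the same counts.

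Hepatocyte markers were examined to check the labelled cell type. All 12 were expressed, and their summed level was 12010 TPM for PLC-8024-CTR and 7784 TPM for PLC-8024-GDF1. None rose and 7 fell, beside 4.82% and 9.61% of all genes, with a median of -1.09. AHSG fell from 399.1 to 25.8 TPM (-3.90), TTR from 7.17 to 0.340 TPM (-2.61), APOA1 from 602.9 to 158.0 TPM (-1.93) and APOA2 from 1754 to 732.3 TPM (-1.26). SERPINA1 had the highest level, at 5308 and 2915 TPM. After rescaling 1 rose, which was FGA at 1.17, 4 fell and the median was -0.91. The liver-restricted members AKR1C4 and AKR1D1 had lower values in the same library as most of these markers. For AKR1C4 the log2 change of -0.23 was close to the -0.20 median of all genes, and it was 0.08 with the GC trend removed. AKR1D1 was below 1 TPM in both libraries. The part of the marker difference in the values of AKR1C4 and AKR1D1 was not tested.

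Markers of other cell types were mostly near zero. Of 6 fibroblast and stellate cell markers, COL3A1 alone was expressed (3.22 and 1.23 TPM), the sum was 3.80 and 2.61 TPM, and COL1A2 and DCN were at 0.0001 TPM in both libraries. Of 4 endothelial markers, PECAM1 alone was expressed (23.2 and 22.2 TPM), the sum was 23.5 and 22.4 TPM, and VWF and KDR were at 0.0001 TPM in both. Of 6 immune cell markers, CD68 fell from 33.1 to 13.2 TPM (-1.26), LYZ was listed at 298.0 and 213.5 TPM, the sum was 331.9 and 227.9 TPM, and PTPRC was at 0.0001 TPM in both. None of these sums was higher in PLC-8024-GDF1, and most of the immune sum was LYZ. A relation of these sums to the AKR1 values was not tested.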

How the data were processed

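RNA-seq was performed on poly-A RNA of 1 PLC-8024-CTR and 1 PLC-8024-GDF1 library on an Illumina HiSeq platform. Per the methods and processing notes, the authors used FastQC 0.11.2, Trimmomatic 0.36, HISAT2 2.1.0 (hg19), bedtools 2.26.0 and StringTie 1.3.3b, and deposited TPM values. The methods name RefSeq annotation while Ensembl identifiers are listed, and the header calls each value a mean. TPM summed to 999990 and 999995 and keeps no depth, and the read numbers of the libraries were not analysed here.

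Members and lists were chosen with earlier results of these data known. Genes needed at least 1 TPM in either library, and the pseudocount was 1 TPM. Named were all members, GDF1 and CERS1, the 3 genes nearest to the highest member, and per list at most the 4 largest changes past 2-fold and the highest TPM. SRXN1, SLC7A11, CUL3, NFE2L2, SLC27A5, CYP7A1, CYP27A1, AKR1E2, KCNAB2, KCNAB3, ALDH2, ALDH3A2, FGA and the non-liver markers were named after their values were seen.

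Positions, transcripts and coding sequences came from GENCODE v44 on GRCh37, which held 55726 of the 58174 identifiers, and promoters from RefSeq (GRCh38.p14). Protein identity had been planned, and coding-sequence identity was computed instead because no protein table was used here. The GC trend was a lowess fit with a span of 0.3. Python 3.11.15, numpy 2.4.6, pandas 2.3.3, statsmodels 0.14.6, biopython 1.88 and matplotlib 3.10.9 were used, and the calculations were tested on simulated data. The alternatives were other pseudocounts, minimums, scalings, sums of paralogs and window lengths. The GC correction and the comparisons of coding sequence and of all other genes were chosen after seeing the data.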

Additional observations from a re-analysis of the deposited data

How the results depend on the processing

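No paired analysis was possible because there was only 1 library for either condition. With the paralogs added up, 1 of 3 expressed units was past 2-fold, a rise, beside 4.82% risen and 9.61% fallen over all genes. AKR1C1 then counted within the AKR1C sum. That sum had a log2 change of 1.13 after rescaling. The median share of 100-base windows of the 4 AKR1C genes found in another member was 9.58%. It was 4.83% with 150-base windows and 15.2% in coding sequence. In every other setting run, AKR1C1 and AKR1B1 were past 2-fold. AKR1D1 was at -1.49 with a pseudocount of 0.1 TPM and -1.94 without one, and AKR1C4 at 0.08 with the GC trend removed. The plain ratio was not computed for AKR1B10 and AKR1B15.

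Over all genes, 720 rose and 1434 fell as reported. The counts were 1167 and 2315 with a pseudocount of 0.1 TPM, 1229 and 2437 by plain ratio, 471 and 1041 at a minimum of 5 TPM, and 917 and 885 with the GC trend removed. Depth was not analysed here, so counting error limits the low members AKR1B10, AKR1B15, AKR1C4 and AKR1D1 to an unknown extent.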
